A study of Mus musculus with 1376 samples.

Results

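The subunits described here are 10 integrin genes of the mouse lung, 6 alpha subunits (Itga1, Itga4, Itga5, Itga7, Itga8 and Itga9) and 4 beta subunits (Itgb1, Itgb3, Itgb5 and Itgb8). They were chosen by name, with earlier results of these data known, from the 46517 genes of a single-cell count table. All 10 have a row in it. The 10 passed the filter on low counts in the fit of 5 cell classes and in the added fit with pericytes, both described below.

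Integrins are cell surface receptors made of an alpha and a beta subunit, which bind extracellular matrix or ligands on other cells outside the cell and connect to actin through talin, kindlin and other adaptors inside it. The alpha subunit largely sets the ligand. The products of Itga1, Itga4, Itga5, Itga7, Itga8 and Itga9 all pair with the beta 1 subunit encoded by Itgb1, whereas the beta subunits encoded by Itgb3, Itgb5 and Itgb8 pair with the alpha V subunit encoded by Itgav. In smooth muscle these receptors hold the contractile cell to its matrix, and several alpha V integrins are known for releasing transforming growth factor beta from its latent form.

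The data were Smart-Seq2 transcriptomes of 1376 single lung cells sorted into plates from 3 adult mice of a strain labelled ACTA2GFP:CSPG4dsRED, which carries reporters named for alpha smooth muscle actin and for the proteoglycan NG2. The first male (M1) filled plates 045s and 046s and gave 47.5% of the cells, the second male (M2) filled 1 further plate (25.6%) and the female (F1) another (27%), and values listed for 3 mice stand in the order M1, M2, F1. All 3 mice carried both reporters, were untreated as far as the labels say, and are labelled as 8 to 30 weeks old. Mouse, plate and, for the female, sex cannot be told apart. The sources used here do not give the sort gate, the series text speaks of male mice only, and the dissociation protocol names heart where the tissue label names lung. Cardiomyocyte markers were low in 5 of the 6 mesenchymal classes defined below (at most 68.3 CPM, the sequence counts of a gene scaled to the library total, summed over 5 genes in any mouse) and reached 43 to 694.5 CPM in airway cells, where 2 of the 5 markers were at 0.

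Cells held 50835 to 1074103 counts (median 230688), and the median per mouse was 267272, 172579.5 and 236324. Cells were clustered without the 10 subunits and without any of the related genes named below, and each cluster was named from marker genes. The classes were vascular smooth muscle-like (34.2% of the cells), airway smooth muscle-like (6.32%, 87 cells), pericyte-like (3.71%, 51 cells), alveolar myofibroblast-like (7.49%), alveolar fibroblast-like (11.2%), adventitial fibroblast-like (5.89%, 81 cells), endothelial-like (5.01%, 69 cells) and macrophage-like (4.65%, 64 cells). The remaining 21.5% were left unnamed. In what follows the ending "-like" is dropped, and levels are CPM of the counts summed per class and mouse, scaled by the trimmed mean of M-values (TMM), unless another unit is named.

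The markers set limits on some names. Vascular smooth muscle markers, summed, stood at 3011 to 4833 CPM over mice in vascular cells and at 2596 to 5030 CPM in pericytes. These classes differed in the pericyte markers (672.9 to 988 against 5688 to 11612 CPM). Airway smooth muscle markers, summed, stood at 3996 to 6183 CPM over mice in airway cells and at 6989 to 8558 CPM in alveolar myofibroblasts, which differed in the shared smooth muscle genes (14040 to 22454 against 3431 to 4623 CPM). Alveolar fibroblast markers reached 1914 to 3239 CPM in adventitial cells, and Schwann cell markers 2.32 to 345.7 CPM there. Endothelial markers were at 57.9 to 123.1 CPM in vascular smooth muscle and 9.95 to 125.6 CPM in pericytes, against 13039 CPM in the endothelial cells of F1, with none of the 8 at 0. Platelet markers, which bear on Itgb3, summed to 22.9 to 31.3 CPM in vascular smooth muscle and 3.82 to 17.7 CPM in alveolar myofibroblasts, with 2 and 3 of the 6 at 0. The part of these cells in the results was not tested. The pericyte class held 9, 8 and 34 cells, under the minimum of 10 cells set for a test, so that it entered only an added fit with a minimum of 5.

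On GRCm38, Itga1 (ENSMUSG00000042284) lies on the minus strand at chr13:114953096-115101964 and Itga4 (ENSMUSG00000027009) on the plus strand at chr2:79255426-79333123. Itga5 (ENSMUSG00000000555) lies at chr15:103344286-103366763 on the minus strand, and Itga7 (ENSMUSG00000025348) at chr10:128933818-128958282 on the plus strand. Itga8 (ENSMUSG00000026768) is at chr2:12106632-12301922 on the minus strand, and Itga9 (ENSMUSG00000039115) at chr9:118606690-118901003 on the plus strand. Of the beta subunits, Itgb1 (ENSMUSG00000025809) is at chr8:128685654-128733200, Itgb3 (ENSMUSG00000020689) at chr11:104608000-104670476 and Itgb5 (ENSMUSG00000022817) at chr16:33829665-33949338, all on the plus strand, and Itgb8 (ENSMUSG00000025321) at chr12:119158022-119238802 on the minus strand. Counts were taken over exons, and the sources used here do not say whether the counting used strand. Exons of Itga8 share 5.05% of their bases with the antisense gene E030013I19Rik, exons of Itga4 share 8.04% with Cerkl on the other strand, and exons of Itga1 share 3.68% with Gm49395 on the same strand. Reads from these stretches cannot be assigned with certainty.

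RefSeq promoters (GRCm38.p6, 250 bases before to 50 bases after the start) matched 8 of the 10 genes, all but Itga7 and Itgb3. The promoters of Itga1 and Itga4, the alpha subunits whose mean was highest in pericytes (for Itga4 with mice that overlap vascular smooth muscle), and of Itga8, whose mean was highest in vascular smooth muscle, are shown as the 250 bases before the start, 5′ to 3′ on the gene's strand. Capitals mark CAGCTG, a core bound by bHLH factors. The windows are chr13:115101965-115102214 (minus strand), chr2:79255176-79255425 (plus strand) and chr2:12301945-12302194 (minus strand).
Itga1: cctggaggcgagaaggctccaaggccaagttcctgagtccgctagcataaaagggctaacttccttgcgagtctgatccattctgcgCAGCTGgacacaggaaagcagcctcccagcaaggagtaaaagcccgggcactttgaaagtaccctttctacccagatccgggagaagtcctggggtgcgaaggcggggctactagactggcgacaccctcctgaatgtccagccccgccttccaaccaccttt
Itga4: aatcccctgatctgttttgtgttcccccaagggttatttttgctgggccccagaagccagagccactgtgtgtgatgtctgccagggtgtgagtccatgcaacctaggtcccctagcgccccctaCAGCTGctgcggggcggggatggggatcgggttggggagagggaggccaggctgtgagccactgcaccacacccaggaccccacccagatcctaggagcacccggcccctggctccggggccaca
Itga8: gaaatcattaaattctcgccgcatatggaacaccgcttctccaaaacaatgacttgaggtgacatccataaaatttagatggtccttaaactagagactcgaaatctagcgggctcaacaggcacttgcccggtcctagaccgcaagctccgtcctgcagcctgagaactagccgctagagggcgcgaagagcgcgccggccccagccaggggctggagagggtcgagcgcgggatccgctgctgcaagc
CAGCTG, searched on both strands, was in 5 of the 8 windows (Itga1, Itga4, Itga5, Itga9 and Itgb5) and in 16.3% of 32851 promoters. GGGCGG was in 4 (Itga4, Itga5, Itgb1 and Itgb5; 35.7% of all), GGAATG in Itgb1 alone (14.7%) and TGAGTCA in Itga9 alone (5.2%), while TGGGAA (25.6%) and the CArG box of serum response factor (1.63%) were in none. These matches describe letters in the window and no binding was measured.

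The subunits divided the classes. Vascular smooth muscle carried the broadest set. With every cell thinned to 50000 counts, its cells held a median of 5, 6 and 6 of the 10 subunits, the most of the 6 classes in each mouse. The means of Itga8, Itga5, Itga7, Itga9 and Itgb3 were highest there, with mice that overlapped the next class. Pericytes were high in Itga1, alveolar fibroblasts kept Itga8 and had little Itga7, Itga4 or Itga1, and alveolar myofibroblasts had little of Itga8 as well. Itgb1 was present in nearly all cells of every mesenchymal class. Over the 5 classes with at least 10 cells in each mouse (all but pericytes), 8 of the 10 subunits differed between classes in edgeR's quasi-likelihood F test (Benjamini-Hochberg adjusted over 16186 genes), against 10.7% of all genes tested. Adjusted p was 1.18e-05 for Itga7, 0.000143 for Itga8, 0.000376 for Itga5, 0.000762 for Itgb1, 0.00477 for Itgb5, 0.00841 for Itga1, 0.00866 for Itga4 and 0.0239 for Itgb3. Itga9 (0.0604) and Itgb8 (0.52) did not pass. The subunits were chosen with earlier results of these data known. Shares over all genes, here and below, are therefore a reference and not a test of the list. All p-values rest on 3 mice. With the mouse as a block, they measure how class differences varied over mice, with 1 estimate of spread for all classes of a fit. Of these calls, Itga7, Itga8 and Itgb1 held without any 1 mouse. Itga1 gave adjusted p = 0.0709, 0.0692 and 0.15, and Itga4 gave 0.187, 0.0793 and 0.0746, without M1, M2 and F1 in that order. Itga5 was lost without F1 (0.0544), Itgb5 without M2 (0.138) or F1 (0.111), and Itgb3 without M1 (0.229) or M2 (0.133). Over 15 alternatives, adjusted p ranged from 5.28e-07 to 0.15 for Itga1, from 9.25e-10 to 0.187 for Itga4, from 4.48e-14 to 0.19 for Itga5, from 7.12e-08 to 0.138 for Itgb5 and from 6e-07 to 0.229 for Itgb3.

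**Figure D1:**
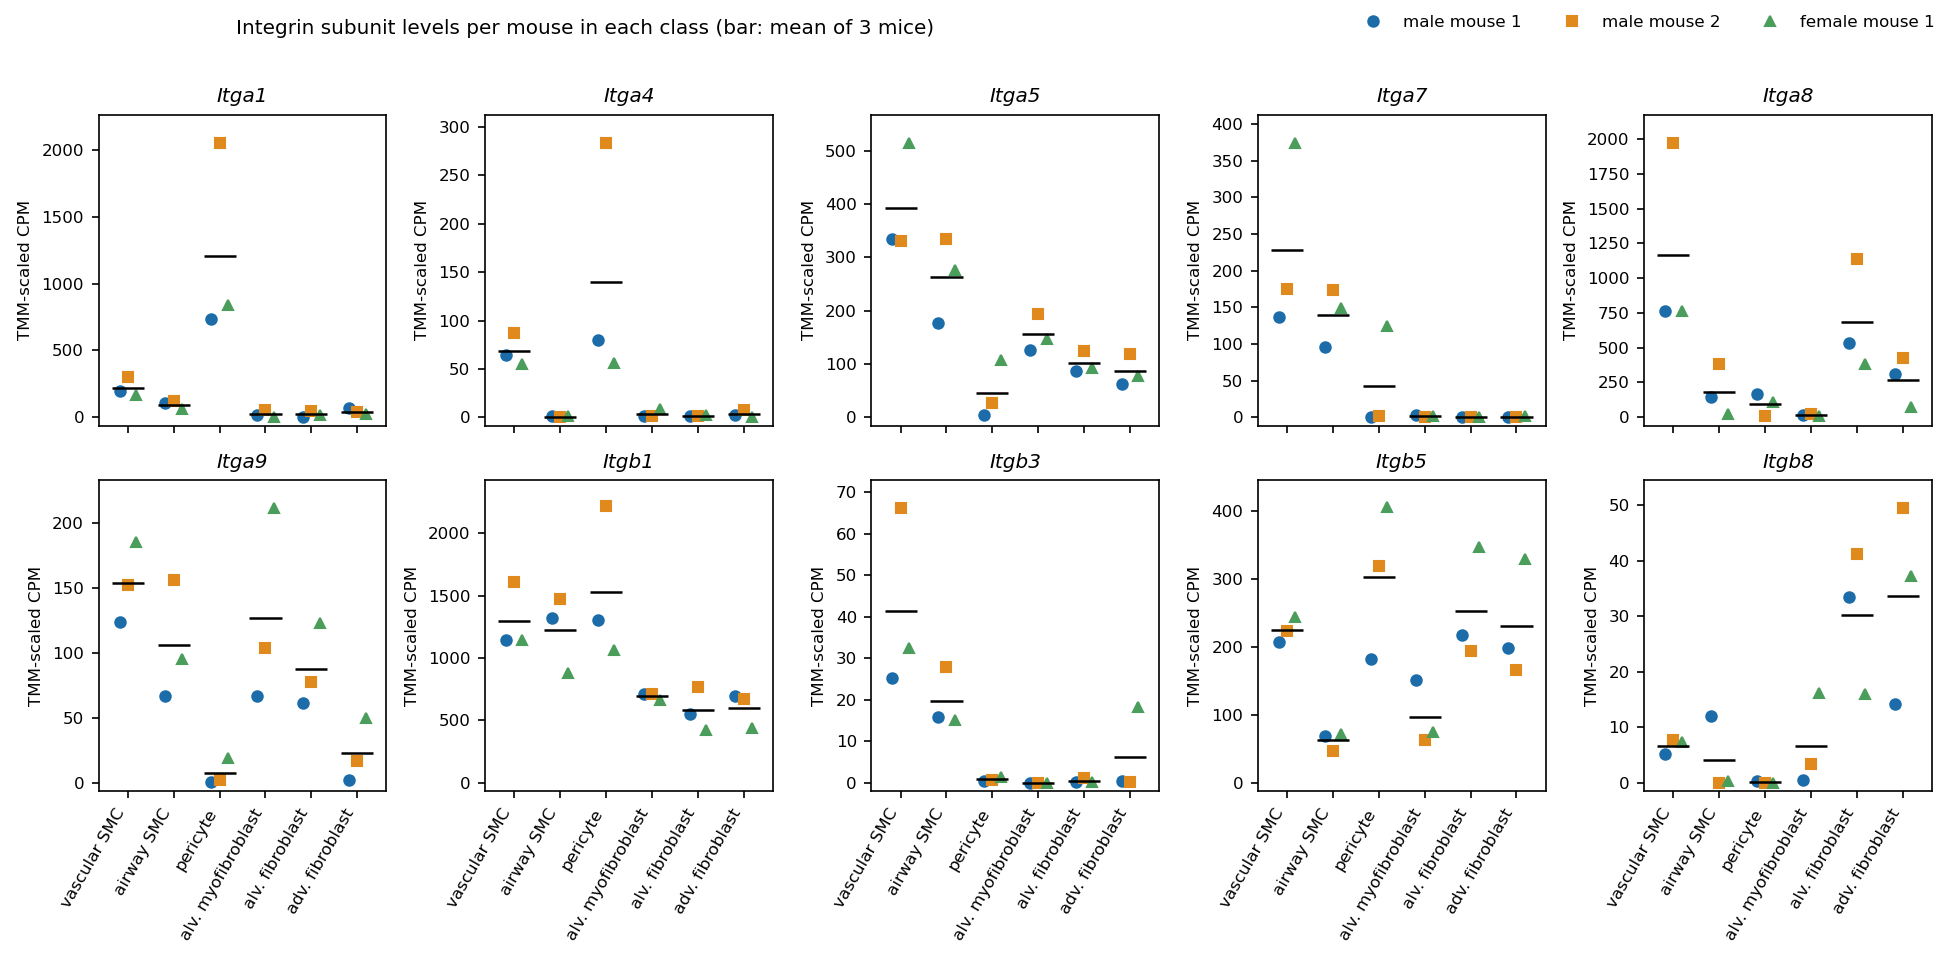
Level of each subunit (y axis, TMM-scaled CPM) in 6 classes (x axis), 1 point per mouse (circle, M1; square, M2; triangle, F1) and a bar at the mean of 3 mice. Itga1 is highest in the pericytes of all 3 mice (738 to 2051 CPM), Itga8 is at 11.6 to 26 CPM in alveolar myofibroblasts, and Itgb3 is at 0 there.

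Against vascular smooth muscle, every subunit that passed a test was lower in airway smooth muscle, alveolar myofibroblasts and alveolar fibroblasts. In airway cells 3 of 10 were lower and 0 higher (Itga8, Itga4 and Itgb5), where 2.56% of all genes were called, 1.03% lower and 1.53% higher. In alveolar myofibroblasts 6 were lower (Itga8, Itga7, Itga5, Itgb1, Itga1 and Itgb3), against 4.70% of genes called, 2.02% lower and 2.68% higher. In alveolar fibroblasts 5 were lower (Itga7, Itga5, Itgb1, Itga1 and Itga4), against 7.0% called, 2.80% lower and 4.19% higher. The median log2 difference of the 10 subunits was -0.85, -2.48 and -1.58 in these comparisons, where that of all genes was -0.17, -0.15 and -0.07. The 3 comparisons share the vascular cells. Between alveolar myofibroblasts and alveolar fibroblasts, 2 subunits were lower in the myofibroblasts (Itga8 and Itgb5), with 2.90% of genes called, 1.71% lower and 1.19% higher. The median was 0.12 against -0.07 over all genes.

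With pericytes added at a minimum of 5 cells, a choice made after seeing the data, 1 subunit was higher in pericytes than in vascular smooth muscle (Itga1) and 3 were lower (Itga9, Itga5 and Itga8). In that comparison 9.26% of 15760 genes were called, 2.60% higher and 6.67% lower. The median difference was -3.24 over the subunits and -0.58 over all genes, and scaling by relative log expression moved the latter to -0.33. Relative to the median of all genes, the log2 difference was 2.94 for Itga1, -4.63 for Itga9, -2.82 for Itga5 and -2.62 for Itga8.

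**Figure D2:**
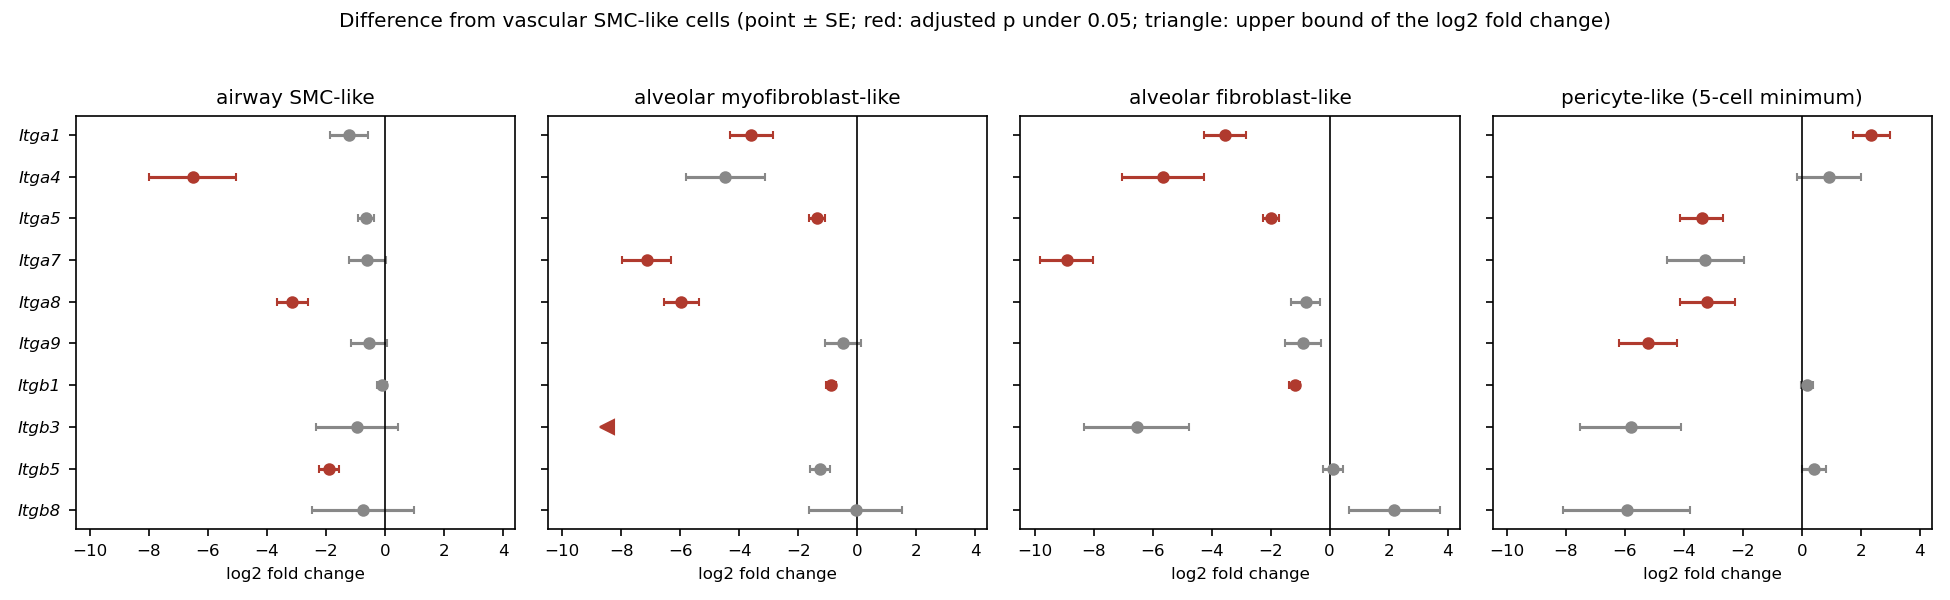
Log2 fold change of each subunit (x axis) against vascular smooth muscle in 4 classes (panels), point ± SE from edgeR, red where adjusted p is under 0.05. The triangle for Itgb3 marks -8.47, since no count was found in alveolar myofibroblasts. This is a bound only if counts are taken as independent and the vascular mean as exact. Itga1 in pericytes is the only red point right of 0 (2.35).

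Itga8 encodes the alpha 8 subunit, a receptor for fibronectin, vitronectin, osteopontin and nephronectin that is known from smooth muscle and stromal cells. In vascular smooth muscle its level was 762 CPM in M1, 1972 in M2 and 762.5 in F1. The alveolar fibroblasts held 533.6, 1136 and 380.7 CPM in the same mice, so that the ranges of the 2 classes overlapped. Adventitial fibroblasts held 314.1, 429.2 and 70.4 CPM, airway cells 142.7, 380.6 and 21.4 CPM, and pericytes 165.7, 6.24 and 109.4 CPM. Alveolar myofibroblasts had the lowest mean of the 6 classes, at 16.7, 26 and 11.6 CPM, which overlapped the pericytes. No mouse of that class reached a value of vascular or alveolar fibroblast cells. After each cell was thinned to 50000 counts, which no cell fell short of, Itga8 was detected in 95.5% of vascular and 94.8% of alveolar fibroblast cells but in 31.1% of alveolar myofibroblasts (99.4%, 97.4% and 69.9% unthinned). Endothelial and macrophage cells, which are not known for this gene, gave 15.9% and 17.2% when thinned, with median depths of 152140 and 241016 counts per cell against 219278 in vascular cells. In M2 Itga8 was the highest of the 3 mice in vascular, alveolar fibroblast, airway, adventitial and alveolar myofibroblast cells.

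Itga8 was lower in alveolar myofibroblasts than in vascular smooth muscle by a log2 difference of -5.97 ± 0.594 (SE; edgeR adjusted p = 8.9e-05), and lower than in alveolar fibroblasts by -5.15 ± 0.571 (adjusted p = 0.000257), both in 3 of 3 mice and without any 1 mouse. In airway against vascular cells the difference was -3.14 ± 0.527 (adjusted p = 0.00661). That call was lost without M1 (0.102) or M2 (0.0711), within a range of 2.34e-06 to 0.237 over 16 alternatives. Alveolar fibroblasts and vascular cells differed by -0.82 ± 0.48, which did not pass (adjusted p = 0.5). In pericytes the difference was -3.20 ± 0.927 (adjusted p = 0.0422), and 1 cell held 95.2% of the Itga8 counts of M1 and another 87.1% of those of F1. It was lost without each mouse (0.208, 0.0726 and 0.105) and ranged from 0.00355 to 0.307 over 14 alternatives. The antisense gene E030013I19Rik, which overlaps Itga8, stood at 137.8, 284.8 and 165.99 CPM in vascular cells and 2.63, 0.456 and 4.24 CPM in alveolar myofibroblasts of the same mice.

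Itga1 encodes the alpha 1 subunit, a receptor for collagens (type IV above all) and laminin. Its level in pericytes was 738 CPM in M1, 2051 in M2 and 839 in F1, above every vascular value (197.6, 300.3 and 163.4 CPM). Vascular values in turn lay above all airway values (104.99, 118.5 and 61.3 CPM). Adventitial cells (67.1, 40.4 and 21.6 CPM), alveolar myofibroblasts (16.4, 51.3 and 4.46 CPM) and alveolar fibroblasts (5.02, 43.8 and 15.4 CPM) overlapped one another. Endothelial cells also carried Itga1. Of these 69 cells 65 came from F1, where they held 543.3 CPM without TMM scaling, against 751 CPM in the pericytes of that mouse on the same scale. The share of thinned cells with a count was 88.2% in pericytes, 87% in endothelial cells, 73.2% in vascular smooth muscle and 4.69% in macrophages (90.2%, 94.2%, 84.1% and 14.1% unthinned).

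Itga1 was higher in pericytes than in vascular cells by a log2 difference of 2.35 ± 0.619 (edgeR adjusted p = 0.0267), in 3 of 3 mice. In pericytes 1 cell held 53.7% of the Itga1 counts of M1, 28% of those of M2 and 8.78% of those of F1. The call was lost without M1 (0.0569), M2 (0.184) or F1 (0.105), and adjusted p ranged from 0.000504 to 0.466 over 14 alternatives. Of the 9 pericytes of M1, the 2 on plate 045s gave 80.8 CPM and the 7 on plate 046s gave 981 CPM. Itga1 was lower than in vascular cells by -3.59 ± 0.726 in alveolar myofibroblasts (adjusted p = 0.0124) and by -3.54 ± 0.72 in alveolar fibroblasts (adjusted p = 0.00912). With M1, M2 or F1 left out these were 0.075, 0.0636 and 0.162, and 0.0771, 0.0613 and 0.0916, within ranges of 4.18e-06 to 0.162 and 3.26e-06 to 0.0916 over 16 alternatives. In airway cells the difference of -1.22 ± 0.656 did not pass (adjusted p = 0.51), although the mice of the 2 classes did not overlap.

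Itga4 encodes the alpha 4 subunit, best known from leukocytes as the partner that binds VCAM1 and fibronectin. Vascular smooth muscle held 64.1 CPM in M1, 87.5 in M2 and 55 in F1. Pericytes held 79.6, 283.5 and 55.6 CPM, which overlapped the vascular values. The other classes were low, with airway cells at 0.973, 0 and 1.24 CPM and alveolar fibroblasts at 1.475, 0.831 and 1.99 CPM. Adventitial cells held 1.83, 7.21 and 0.776 CPM, and alveolar myofibroblasts 0.876, 1.71 and 9.03 CPM, where 1 cell held 90.1% of the counts of F1. Among thinned cells Itga4 was detected in 34% of vascular cells and 35.3% of pericytes, in 26.6% of macrophages, and in 4.598% to 7.41% of the airway, alveolar and adventitial classes (45.2%, 49% and 37.5%, and 17.3% to 24.7%, unthinned). Macrophage markers summed to 12.9 to 44.3 CPM in vascular cells, with none of the 8 at 0, and to 8873 to 18324 CPM in macrophages, whose Itga4 stood at 24.7 CPM without TMM scaling.

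The difference of Itga4 in airway against vascular cells was -6.52 ± 1.47 on the log2 scale (edgeR adjusted p = 0.0353), from 24 counts in airway cells. In alveolar fibroblasts it was -5.66 ± 1.39 (adjusted p = 0.0274). Each call was lost without any 1 mouse, with 0.261, 0.195 and 0.205 for airway cells and 0.225, 0.137 and 0.136 for alveolar fibroblasts in mouse order. The ranges over 16 alternatives were 1.52e-07 to 0.261 and 8.18e-07 to 0.225. Alveolar myofibroblasts (-4.47 ± 1.35, adjusted p = 0.0911) and pericytes (0.92 ± 1.08, adjusted p = 0.677) did not pass.

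Itga5 encodes the alpha 5 subunit of the main fibronectin receptor. Vascular smooth muscle held 333.96 CPM in M1, 330.7 in M2 and 514.6 in F1, and airway cells 176.8, 334.6 and 275.6 CPM, which overlapped the vascular values. Alveolar myofibroblasts held 126.3, 193.7 and 147.3 CPM, alveolar fibroblasts 87.5, 123.9 and 92.6 CPM, and adventitial cells 61.8, 119.1 and 76.6 CPM. Pericytes varied most, at 3.602, 27 and 106.9 CPM, and 1 cell held 94.9% of the counts of M2. Against vascular cells the log2 difference was -1.98 ± 0.27 in alveolar fibroblasts (edgeR adjusted p = 0.000572), -1.37 ± 0.265 in alveolar myofibroblasts (adjusted p = 0.00924) and -3.40 ± 0.724 in pericytes (adjusted p = 0.00792). The first was lost without F1 (0.0504), the second without M1 (0.205) or F1 (0.209), and the third without M1 (0.0717) or M2 (0.129). Adjusted p over the alternatives ranged from 1.17e-09 to 0.259, from 0.000172 to 0.609 and from 3.56e-05 to 0.154. Airway cells (-0.64 ± 0.262, adjusted p = 0.314) did not pass. In alveolar myofibroblasts of M1 the 13 cells of plate 045s gave 15.4 CPM and the 13 of plate 046s gave 218.1 CPM.

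Itga7 encodes the alpha 7 subunit, the laminin receptor of muscle. It had the smallest adjusted p of the 10 between classes. Both smooth muscle classes carried it, with 137.2, 174.6 and 374.4 CPM in the vascular cells and 96.2, 173.1 and 148.8 CPM in the airway cells. Alveolar myofibroblasts held 2.75, 0.684 and 1.34 CPM, alveolar fibroblasts 0.506, 0.447 and 0.355 CPM, and adventitial cells 0.733, 0 and 1.24 CPM. Pericytes were low in both males (0.720 and 1.39 CPM) and at 124.4 CPM in F1. The log2 difference from vascular cells was -8.91 ± 0.902 in alveolar fibroblasts (edgeR adjusted p = 6.38e-05) and -7.14 ± 0.839 in alveolar myofibroblasts (adjusted p = 0.000299), with no overlap between mice. Both calls held without any 1 mouse. Airway (-0.60 ± 0.636, adjusted p = 0.848) and pericyte cells (-3.27 ± 1.32, adjusted p = 0.14) did not pass. Thinned cells with an Itga7 count made up 49.3% of vascular and 35.6% of airway cells, and 3.70% to 5.83% of the alveolar and adventitial classes (57.3%, 46% and 14.3% to 20.4% unthinned).

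Itga9 encodes the alpha 9 subunit, which binds tenascin C, osteopontin and the extra domain A of fibronectin. Its mice overlapped over most classes, at 124.2, 152.1 and 185.2 CPM in vascular smooth muscle, 67, 156.5 and 95.4 CPM in airway cells, 66.8, 103.6 and 211.5 CPM in alveolar myofibroblasts and 61.5, 77.9 and 123.2 CPM in alveolar fibroblasts. Neighbours among these 4 classes overlapped. Adventitial cells, at 1.83, 16.7 and 50.1 CPM, did not overlap alveolar fibroblasts. Pericytes held 0.360, 2.08 and 19.3 CPM, and 1 cell held 83.7% of the counts of F1. The log2 difference of pericytes from vascular cells was -5.21 ± 0.978 (edgeR adjusted p = 0.00324). It was lost without M2 (0.093) and ranged from 4.4e-08 to 0.093 over 14 alternatives. The difference was -0.55 ± 0.612 in airway cells (adjusted p = 0.858), -0.47 ± 0.611 in alveolar myofibroblasts (adjusted p = 0.828) and -0.89 ± 0.611 in alveolar fibroblasts (adjusted p = 0.613), and none passed.

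Itgb1 encodes the beta 1 subunit, partner of all 6 alpha subunits above. Vascular smooth muscle held 1145, 1609 and 1144 CPM, airway cells 1317, 1470 and 878.5 CPM, and pericytes 1301, 2220 and 1060 CPM. Alveolar myofibroblasts held 713, 707 and 660.1 CPM, alveolar fibroblasts 549.4, 769 and 426.2 CPM, and adventitial cells 692, 668 and 435.8 CPM. Vascular, airway and pericyte cells overlapped one another, as did the other 3 classes, and no mouse overlapped between airway cells and alveolar myofibroblasts. Itgb1 was lower than in vascular cells by a log2 difference of -1.18 ± 0.178 in alveolar fibroblasts (edgeR adjusted p = 0.0012) and -0.89 ± 0.177 in alveolar myofibroblasts (adjusted p = 0.0112). The first held without any 1 mouse. The second was lost without M1 (0.148), M2 (0.191) or F1 (0.0789) and ranged from 0.00301 to 0.191 over 16 alternatives. Airway cells (-0.11 ± 0.176, adjusted p = 0.927) and pericytes (0.19 ± 0.204, adjusted p = 0.643) did not pass.

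Itgb3 encodes the beta 3 subunit, which joins the alpha V subunit in smooth muscle and the alpha IIb subunit in platelets. It was a minor transcript, at 25.3, 66.1 and 32.4 CPM in vascular smooth muscle and 15.9, 27.8 and 15.1 CPM in airway cells. In airway cells 57.1% to 76.8% of its counts came from 1 cell of each mouse. Alveolar myofibroblasts held no Itgb3 count among 25964206 counts, against 4266 counts in vascular cells. Taking 3 counts over the class as the floor (0.116 CPM), Itgb3 was at least 354.7-fold under the vascular mean of 41.3 CPM (edgeR adjusted p = 0.0189 for the difference). That fold bounds the myofibroblast side only, for counting error, and takes the vascular mean as exact, though its mice ran from 25.3 to 66.1 CPM. In the same way, 0 cells with a count allows up to 2.91% of the class to hold one, for counting error only and with cells taken as independent. This limits cells with a count and not cells that express the gene, since thinned vascular cells had an Itgb3 count in only 18.7%. The call was lost without M1 (0.175) or M2 (0.104) and ranged from 5.01e-08 to 0.175 over 16 alternatives. With this gene at that floor the median of the 10 subunits in the comparison stayed at -2.48. Alveolar fibroblasts held 0.169, 1.15 and 0.142 CPM, pericytes 0.360, 0.693 and 1.38 CPM, and adventitial cells 0.367, 0.206 and 18.2 CPM, where 1 cell held 92.3% of the counts of F1. Neither alveolar fibroblasts (-6.55 ± 1.78, adjusted p = 0.0556) nor pericytes (-5.81 ± 1.72, adjusted p = 0.0533) passed against vascular cells.

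Itgb5 encodes the beta 5 subunit, which forms a vitronectin receptor with alpha V. Its order of classes differed from that of Itgb1. Pericytes held 182.6, 318.9 and 406.3 CPM, alveolar fibroblasts 217.6, 193.4 and 347.7 CPM, adventitial cells 198.2, 166.01 and 329.6 CPM and vascular cells 207.04, 223.3 and 244.5 CPM, and these overlapped. Airway cells held 69.4, 47 and 71.4 CPM and alveolar myofibroblasts 151.8, 63.4 and 74.3 CPM, all under every vascular value. The log2 difference from vascular cells was -1.89 ± 0.342 in airway cells (edgeR adjusted p = 0.0102). That call was lost without M1 (0.0549), M2 (0.213) or F1 (0.116), with a range of 1.43e-05 to 0.213 over 16 alternatives. Alveolar myofibroblasts were lower than alveolar fibroblasts by -1.39 ± 0.339 (adjusted p = 0.0492), which was lost under 13 of 16 alternatives, among them each mouse left out (0.0595, 0.293 and 0.366, with a range of 0.00211 to 0.366). Alveolar myofibroblasts against vascular cells gave -1.27 ± 0.338 (adjusted p = 0.0535), and pericytes 0.41 ± 0.396 (adjusted p = 0.59).

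Itgb8 encodes the beta 8 subunit, which with alpha V activates latent transforming growth factor beta. Its level was highest in adventitial cells (14.1, 49.4 and 37.3 CPM) and alveolar fibroblasts (33.4, 41.3 and 16 CPM), and each alveolar fibroblast value lay above the vascular values of 5.13, 7.62 and 7.24 CPM. Few cells carried it. In adventitial cells 1 cell of each mouse held 59.7%, 58.75% and 48.9% of its counts, and in alveolar fibroblasts 24.7%, 29.9% and 49.3%. Thinned cells with a count made up 18.8% of alveolar fibroblasts, 18.5% of adventitial cells and 4.67% of vascular cells (23.4%, 23.5% and 6.16% unthinned), and 1 vascular cell held 92.9% of the Itgb8 counts of F1. No difference passed the test. Against vascular cells the log2 difference was 2.19 ± 1.54 in alveolar fibroblasts (edgeR adjusted p = 0.627), -0.05 ± 1.58 in alveolar myofibroblasts (adjusted p = 0.998) and -5.94 ± 2.15 in pericytes (adjusted p = 0.0987).

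**Figure D3:**
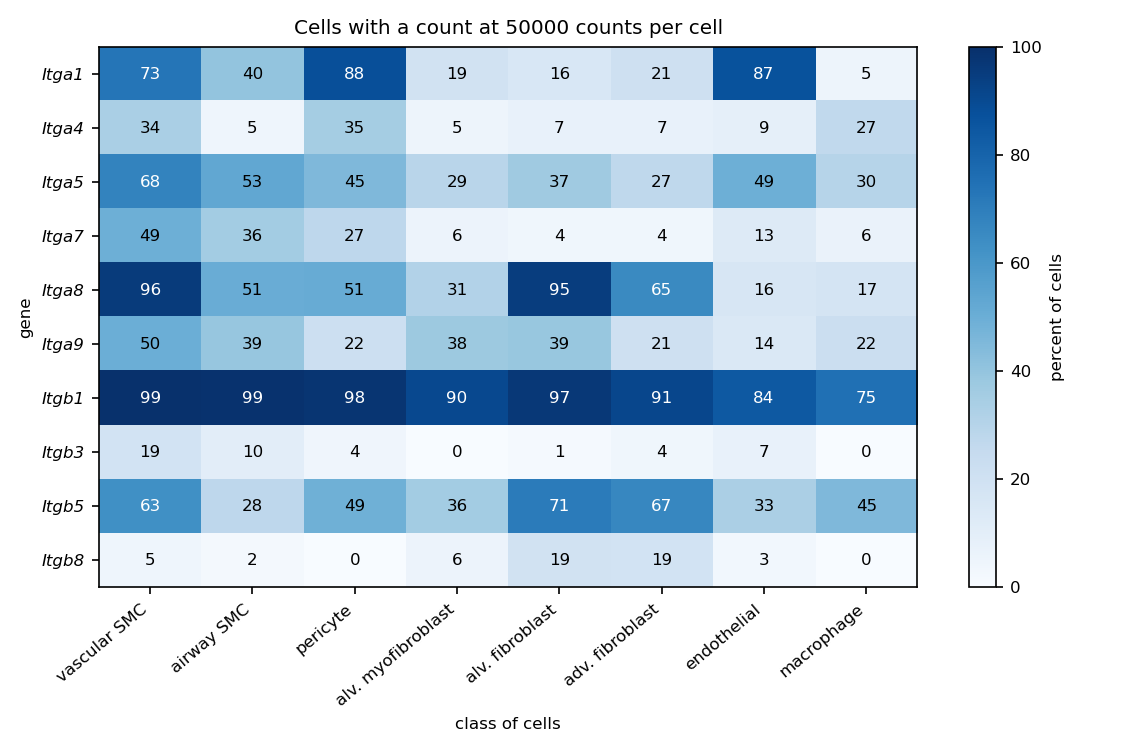
Percent of cells with at least 1 count (colour and number) for each subunit (rows) in 8 classes (columns), every cell thinned to 50000 counts. Itgb1 was detected in 75% of macrophages and in 84.1% or more of the cells of every other class, and Itga8 stood at 95.5% in vascular and 94.8% in alveolar fibroblast cells.

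Levels of different genes are compared here per kilobase of exon (CPM per kilobase, mean of 3 mice). In vascular smooth muscle the order was Itgb1 (318.4), Itga8 (158.2), Itga5 (79.7), Itgb5 (63.3), Itga7 (28.3), Itga9 (20.0), Itga1 (11.8), Itgb3 (6.99), Itga4 (4.93) and Itgb8 (0.603). Summed per length, the 6 alpha subunits reached 302.9 and the 4 beta subunits 389.3 in these cells. The corresponding sums were 114.03 and 320.7 in airway cells, 103.2 and 459.4 in pericytes, 52.4 and 197.7 in alveolar myofibroblasts, 126.02 and 216.5 in alveolar fibroblasts, and 59.8 and 215.9 in adventitial cells. The beta subunits outweighed the alpha subunits least in vascular smooth muscle and most in pericytes.

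The classes had 3 different leading alpha subunits. Itga8 made up 49.96% of the per-length alpha level in vascular cells (35.6% to 67.2% over mice), 71% in alveolar fibroblasts (59.1% to 80.3%) and 55.9% in adventitial cells (29% to 72%). Itga5 led in airway cells at 48.2% (40.5% to 60.1%) and in alveolar myofibroblasts at 61.2% (49.8% to 67.7%). In alveolar myofibroblasts Itga9 came second with 30.5% (22.7% to 45.8%). In M1 of that class 1 cell held 56.7% of the Itga5 counts. Without TMM scaling or length, Itga5 stood at 15.4 CPM and Itga9 at 43.1 CPM on plate 045s of M1. On plate 046s they stood at 218.1 and 85.9 CPM, so that the lead of Itga5 in M1 was seen on that plate only. Itga1 led in pericytes at 60.5% (43.6% to 80.3%). The leading subunit differed between mice in 2 of these classes, since Itga5 (35.9%) and Itga8 (35.6%) were level in the vascular cells of F1, and Itga5 (47.1%) exceeded Itga8 (29%) in the adventitial cells of that mouse. Shares sum to a fixed total, so that a high share of one subunit lowers those of the others.

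**Figure D4:**
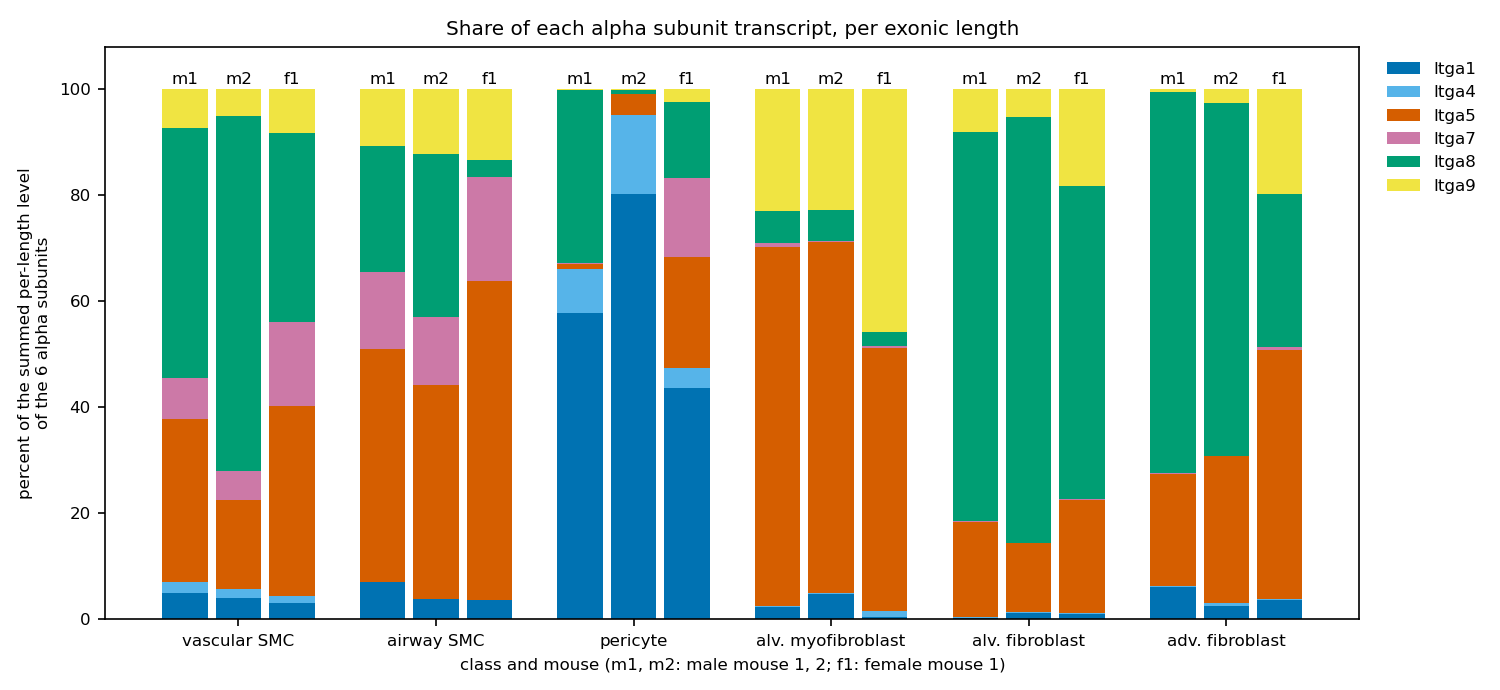
Share of each of the 6 alpha subunits in their summed per-length level (y axis, percent), 1 bar per class and mouse (m1, m2 and f1 for M1, M2 and F1). Itga8 takes 59.1% to 80.3% in alveolar fibroblasts and at most 5.97% in alveolar myofibroblasts, where Itga5 and Itga9 fill most of the bar.

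Single cells carried several subunits at once. Thinned vascular cells held a count for a median of 5 to 6 of the 10 subunits over mice, alveolar fibroblasts for 4, and alveolar myofibroblasts for 2 to 3. Of vascular cells with Itga8, 99.3% also had Itgb1, against 99.4% of all vascular cells. The beta subunits found beside Itgav are given next, and their shares were not compared by a test. Among vascular cells with Itgav, 63% had Itgb5, 18.5% had Itgb3 and 6.36% had Itgb8, against 63.1%, 18.7% and 4.67% of all vascular cells. Among alveolar fibroblasts with Itgav, 75.8% had Itgb5, 16.7% had Itgb8 and 1.52% had Itgb3, against 70.8%, 18.8% and 1.3% of all cells of the class. Of 31 alveolar myofibroblasts with Itgav, 9 had Itgb5, 1 had Itgb8 and 0 had Itgb3. These shares are of transcripts at 50000 counts per cell and do not measure paired protein.

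Within vascular smooth muscle, the clustering had separated a cluster led by Stac, P2rx1 and Kcna5 (64.3% of the class) from one led by Efhd1, Sfrp2 and Sost (35.7%). Itga9 stood at 115.9, 101.1 and 120 CPM (without TMM scaling) in the first cluster and 190, 188.9 and 270.1 CPM in the second. Itgb3 stood at 11.8, 48.6 and 19.6 CPM in the first and 66.3, 77.8 and 49.05 CPM in the second. Both were lower in the first cluster in 3 of 3 mice, and the mice of the clusters did not overlap. Itga8 was lower in 3 of 3 mice as well (686, 1235 and 612.7 against 1226, 2519 and 953 CPM), but the ranges overlapped. The other 7 subunits overlapped and had no common direction over the 3 mice. These values describe clusters and were not tested. The share of all genes without overlap between the clusters was not counted.

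**Figure D5:**
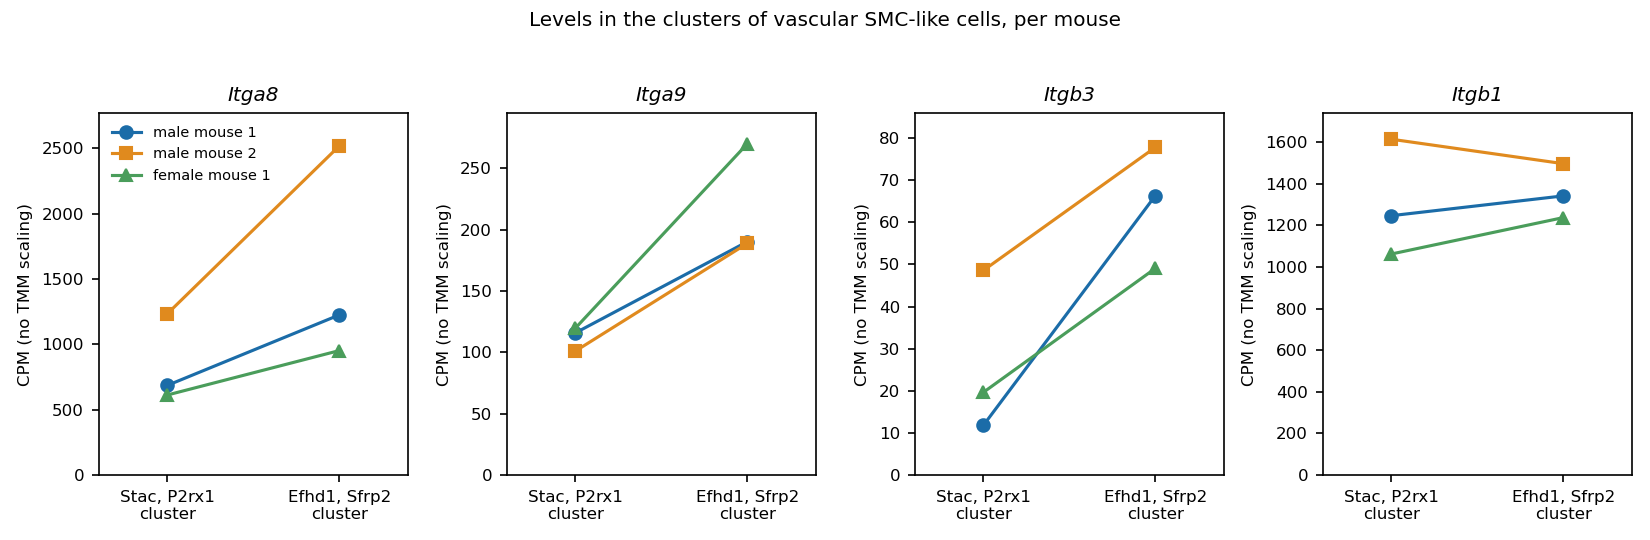
Level (y axis, CPM without TMM scaling) of Itga8, Itga9, Itgb3 and Itgb1 in the clusters of vascular smooth muscle cells (x axis), 1 line per mouse. Itga9 and Itgb3 are higher in the Efhd1, Sfrp2 cluster in each mouse, and Itgb1 lies between 1063 and 1614 CPM in both.

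Of the cells left unnamed, those of a cluster led by Pianp, Adora1 and Sema5b made up 13.6% of all cells. Its highest marker score was for pericytes (0.356, then 0.142 for vascular smooth muscle), short of the lead of 0.25 needed for a name. With finer clustering (Leiden resolution 2), 47 cells led by Adora1 and Col8a1 were named pericyte-like. The pericyte values above therefore describe the named class of 51 cells only. The unnamed cluster held Itga8 at 429.4, 624.6 and 286.8 CPM, Itga1 at 186.1, 151.3 and 243.6 CPM and Itga4 at 133.8, 59.5 and 71 CPM (without TMM scaling). Itgb3 was at 9.15, 0.377 and 0.507 CPM there.

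Of 16 other integrin subunits, 9 were tested and none differed between classes by edgeR, although 4 had an unadjusted p under 0.05 and DESeq2 called 4. The alpha V gene Itgav stood at a mean of 61 to 107.8 CPM in all 6 classes (adjusted p = 0.777). Itga6, a laminin receptor subunit, was at 77.9 ± 67.5 CPM (SD, n = 3) in pericytes and at 1.59 to 8.42 CPM elsewhere (edgeR adjusted p = 0.608, pericytes not in that fit). Itga3, another laminin receptor subunit, was at 160 ± 134.9 CPM (SD, n = 3) in vascular cells and at most 11.6 CPM elsewhere (edgeR adjusted p = 0.252). In the pairwise comparisons edgeR called none of these, with 1 to 3 at an unadjusted p under 0.05 in each and 1 to 3 called by DESeq2.

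Of 30 adaptor and signalling genes inside the cell, 27 were tested and 14 differed between classes, where 10.7% of all genes did. The related lists, too, were chosen with earlier results of these data known. Lower than in vascular cells were 1 of 27 in airway cells, 6 in alveolar myofibroblasts and 7 in alveolar fibroblasts, and 1 was higher in each. Over all genes, 1.03%, 2.02% and 2.80% were lower and 1.53%, 2.68% and 4.19% higher in the same order. Flna, the actin crosslinker filamin A, was at 4983 ± 1107 CPM (SD, n = 3) in vascular cells, 997 ± 400.1 in alveolar myofibroblasts and 713 ± 152.4 in alveolar fibroblasts (edgeR omnibus adjusted p = 3.53e-06). Tln1, the talin that links beta subunits to actin, was at 1070 ± 364.5 CPM in vascular cells and 361.7 ± 185.1 in alveolar myofibroblasts (SD, n = 3; edgeR omnibus adjusted p = 4.03e-05). Zyx (zyxin, 0.00069) and Tgfb1i1 (Hic-5, 0.00107) followed. Zyx was at 195.3 ± 161.3 CPM (SD, n = 3) in pericytes and 1222 ± 273.6 in vascular cells, with a log2 difference of -2.59 ± 0.546 (edgeR adjusted p = 0.00741). Of 26 adaptor genes tested in pericytes, 4 were higher and 3 lower than in vascular cells, against 2.60% and 6.67% of all genes.

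Of 34 ligand genes, 31 were tested and 26 differed between classes, where 10.7% of all genes did. Against vascular cells, 4 were higher and 2 lower in airway cells, 8 and 5 in alveolar myofibroblasts, 18 and 4 in alveolar fibroblasts, and 11 and 6 in pericytes. The shares of all genes, higher and lower in the same order, were 1.53% and 1.03%, 2.68% and 2.02%, 4.19% and 2.80%, and 2.60% and 6.67%. Tgfbi, a matrix protein induced by transforming growth factor beta, was at 3.84 ± 2.15 CPM (SD, n = 3) in vascular cells, 1262 ± 633.6 in airway cells and 1661 ± 324.8 in alveolar myofibroblasts (edgeR omnibus adjusted p = 1.09e-06). Thbs1 (thrombospondin 1) was at 948 CPM in vascular cells and 3535 CPM in alveolar myofibroblasts (omnibus adjusted p = 1.46e-05). Col3a1 (type III collagen) was at 943 CPM and 6435 CPM in the same classes, and Nid1 (nidogen 1, a basement membrane linker) at 106.9 CPM in vascular cells and 689 CPM in pericytes (omnibus adjusted p = 1.47e-05 for each, pericytes not in that fit). Npnt, which encodes the alpha 8 ligand nephronectin and was singled out after its values were seen, was at 1544 ± 481.4 CPM (SD, n = 3) in alveolar fibroblasts, 455.6 ± 147.1 in vascular cells and 63.1 ± 32.7 in alveolar myofibroblasts. It was lower in alveolar myofibroblasts than in alveolar fibroblasts by a log2 difference of -4.65 ± 0.437 (edgeR adjusted p = 7.74e-05) and higher in alveolar fibroblasts than in vascular cells by 1.77 ± 0.385 (adjusted p = 0.0138).

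The genes with the most similar pattern were ranked by Pearson's r of log2(CPM + 1) over the 15 sums of 5 classes and 3 mice, among 5255 genes. These genes came only from the second part of a random split of the genes, where all listed genes were placed. Genes of the other part could not be matches, so the ranks hold among these 5255 genes only. These 15 points share mice and class sizes, and r is a description. Itga7 had the closest matches, with Syt15 (r = 0.989), Stum (0.984) and Pcp4l1 (0.980). Itgb1 was closest to Dstn (0.960), Dmd (0.952) and Ppp1cb (0.936), Itga5 to Flna (0.936), Parm1 (0.934) and Marveld1 (0.932), and Itga9 to Cipc (0.924), Zyx (0.917) and Zfp395 (0.910). For Itga4 they were Hey2, the vascular marker Kcna5 (0.928 each) and Ror1 (0.893), and for Itga1 they were Oxct1 (0.936), F3 (0.872) and Ppp1r18 (0.867). Itga8 was closest to Dpysl3 (0.892), Cped1 (0.861) and Pkp4 (0.860), and Itgb3 to Ptprz1 (0.938), Stum (0.895) and Itga7 (0.882). Itgb5 (Best3, 0.891; Fam110a, 0.870; Dclk1, 0.863) and Itgb8 (D630003M21Rik, 0.881; Ttll12, 0.875; Rnf145, 0.872) shared none of these.

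Across the 10 subunits, classes ordered by their mean gave 50 neighbouring pairs. The mice overlapped in 41 of them and did not in 9, so that the order within most of the list is not resolved with 3 mice. The corresponding share over all genes was not counted. Among the 9 was Itgb3 in alveolar fibroblasts against alveolar myofibroblasts, with 4, 18 and 2 counts against 0 in each mouse.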

How the data were processed

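Per the labels' protocols, single cells were sorted into plates and made into Smart-Seq2 libraries. Bowtie, Bowtie2, Subread, featureCounts and bcl2fastq are named in the submitters' processing notes with the builds GRCm38 and mm10, without versions. The deposited file holds whole-number counts per Ensembl gene and cell, without normalization by the authors, for 46517 genes and 1376 cells. Symbols, exon lengths and positions came from GENCODE M21 (46005 IDs matched, 512 did not). No 2 cells held identical counts.

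The members and the related gene lists were chosen with earlier results of these data known. Genes were split at random (seed 1) into parts of 23221 and 23296, with all 90 listed genes in the second. Each part was tested between classes clustered on the other. Counts were scaled to 10000 per cell, log transformed and clustered on 1000 variable genes, 30 principal components and 15 neighbours (Leiden resolution 1; leidenalg 0.10.2, igraph 0.11.9, scikit-learn 1.9.0). A cluster took the name of its best-scoring marker list where 3 markers were detected in 25% of its cells and the score led by 0.25. Of 1022 cells named in both clusterings, 97.1% got the same name. No doublet caller was run.

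Sums of counts over the cells of a class in a mouse were tested with edgeR 4.0.16 (R 4.3.3): TMM, filterByExpr, quasi-likelihood F test, Benjamini-Hochberg over all genes, threshold 0.05, 1 fit for all classes. The mouse was a block, since each mouse gave cells to every class tested. The SE was obtained by dividing the log2 fold change by the root of F. The pericyte comparison was planned at 10 cells per mouse and could not be run there, so it used a minimum of 5. The code was tested on simulated data. Named were all members, Itgav, Itga6 and Itga3, the 4 called genes of each related list with the smallest omnibus p, and the 3 genes of the second part most like each member (mean of at least 10 CPM).

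Alternatives were DESeq2 1.42.0, other scaling, no filter, no block, each mouse left out, other clusterings, cell filters, thinning, 1 plate of male mouse 1, and fits of 2 classes. Python 3.11.15, numpy 2.4.6, scipy 1.17.1 and matplotlib 3.10.9 were used.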

Additional observations from a re-analysis of the deposited data

How the results depend on the processing

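Of 28 single-subunit calls, 8 held under every alternative run, namely Itga7 and Itga8 between all classes and in alveolar myofibroblasts against vascular cells, Itga7 and Itgb1 in alveolar fibroblasts against vascular cells, Itgb1 between all classes, and Itga8 in alveolar myofibroblasts against alveolar fibroblasts. The other 20 were lost under at least 1, and 0 changed sign. Leaving out a mouse lost 15 to 17 calls, and the counts then ranged over mice from 4 to 5 between all classes, 0 to 1 in airway, 2 to 3 in alveolar myofibroblast and 2 to 3 in alveolar fibroblast against vascular cells, 1 in alveolar myofibroblasts against alveolar fibroblasts, and 0 to 3 in pericytes. Where the count was 0 by edgeR, 4 subunits in airway cells and 5 in pericytes had an unadjusted p under 0.05. With no replicate block, so that the pairing by mouse was dropped, the counts were 8, 2, 3, 5, 1 and 3 in the same order, and 6 calls were lost. Plate 045s alone for male mouse 1 gave 4 between all classes and 3 in alveolar fibroblasts against vascular cells. One clustering on all variable genes but the integrin lists gave 1 in airway cells, 3 in alveolar fibroblasts and 1 in pericytes. A fit of only the 2 classes gave 1 in airway cells, 3 in alveolar myofibroblasts and 1 in pericytes. In alveolar myofibroblasts against alveolar fibroblasts the count was 1 in place of 2 with relative log expression, without the low-count filter, at Leiden resolution 0.5, with one clustering, with the stricter cell filter, without cells with markers of other classes at 10 CPM, for either plate alone and in the fit of 2 classes, where only 8 of the 10 subunits were tested. In pericytes DESeq2 gave 7, and the marker filter at 10 CPM gave 2. For these changes the cause was not tested, beyond the fewer samples of the fits without a mouse. Leaving out cells with any count for 3 markers of another class removed 908 cells and left too few to fit, and plates of male mouse 1 gave no pericyte value. Of 420 levels under alternatives, 19 moved by over 1 SD. With 1 mouse left out, a mean of 3 mice can hardly move that far whatever the data. In each of those cases 1 of 60 levels moved, which does not measure how stable the levels are. Of 60 levels, 3 moved at Leiden resolution 2, 4 with thinning, 6 for plate 045s alone and 3 for plate 046s alone. In some cases 1 cell held most of a mouse's counts, so that few cells carry these values. Among them were Itgb3 in airway cells, and Itga8 and Itga1 in the pericytes of male mouse 1. Others were Itga1 in adventitial cells (98.6%, 88.8% and 59.1% in mouse order) and Itga8 in alveolar myofibroblasts (54.9%, 82.9% and 54.8%). So were Itgb5 in airway cells of male mouse 2 (84.5%) and in pericytes of both males (52.9% and 71.7%). Itga7 in the pericytes of the female (57.7%) was another.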
